A study of Homo sapiens with 36 samples.

Results

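JUNB and STAT3 were depleted separately in the same cell line, and the messenger RNA of the JUNB knockdown was set directly against that of the STAT3 knockdown. The line was MDA-MB-231, an established triple-negative breast cancer line with a mesenchymal look. Of the 36 libraries and 18 groups of the series, the 4 libraries in the second MDA-MB-231 set were used: JUNBi, cells given small interfering RNA (siRNA) against JUNB, replicates 1 and 2, and STAT3i, cells given siRNA against STAT3, replicates 1 and 2. Members were taken from the sample titles, and the control-siRNA libraries of that set were not used. A gene that differed could therefore have been moved by either knockdown or by both, and these cannot be told apart here. The siRNAs were commercial pools against each gene. The labels give MDA-MB-231 no transformation status, and the culture, transfection and tamoxifen details attached to the samples describe ER-Src cells. Nothing states whether replicates 1 and 2 came from separate cultures, so p-values measure the spread between these libraries, which may be technical.

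JUNB is a subunit of AP-1, a dimer of JUN, FOS, ATF or MAF family proteins that binds the palindromic site TGANTCA and switches on genes for growth, cytokines and matrix proteases. STAT3 is held inactive until cytokines of the interleukin-6 family engage the gp130 receptor and JAK kinases phosphorylate it, whereupon it dimerises and binds sites of the form TTCNNNGAA. Both factors sit with NF-kB and the co-activators YAP and TAZ in an inflammatory network in breast cancer cells, in which STAT3 and AP-1 promote transcription of IL6 and IL6 in turn activates STAT3.

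Expected counts on Ensembl genes came to 18076140 in JUNBi replicate 1, and to 8127286, 8257361 and 8216349 in JUNBi replicate 2, STAT3i replicate 1 and STAT3i replicate 2. JUNBi replicate 1 thus had the most reads. Over 8642 genes with a mean normalized count (library depth evened out) of at least 100, the SD of the log2 ratio between libraries was 0.265 within JUNBi and 0.315 within STAT3i. Between groups it was 0.316 to 0.443. The markers fitted the labelled line in part: VIM at 1278 to 1599 TPM (the share of transcripts after division by length, scaled to a fixed total), with CD44, AXL and FOSL1 each at 198 TPM or more, while 5 or 6 of 11 luminal markers were below 1 TPM, ESR1, PGR, FOXA1 and CDH1 among them at 0 to 0.02 TPM. Other luminal markers were present, such as KRT19 at 287 to 357 TPM, XBP1 at 25.5 to 37.5 TPM and EPCAM at 4.78 to 10.1 TPM. Of 14 basal epithelial markers, 8 were below 1 TPM in every library. The others were present: LAMB3 at 156 to 198 TPM, S100A2 at 147 to 213 TPM and SFN at 115 to 189 TPM. COL17A1 stood at 18.7 to 25.7 TPM, KRT15 at 12.4 to 17.0 TPM and PERP at 8.68 to 13.4 TPM. Among the 10 mesenchymal markers SPARC was low, at 0.04 to 0.64 TPM, and so was ZEB1, at 1.15 to 1.44 TPM.

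Each targeted mRNA was low in the libraries that bear its name. JUNB (ENSG00000171223.5, chromosome 19, 12791486 to 12793315, plus strand, GRCh38) stood at 6.70 and 7.99 TPM in the JUNBi libraries and at 19.5 and 23.8 TPM in the STAT3i libraries. The groups did not overlap, and the DESeq2 log2 fold change, which is JUNBi over STAT3i throughout, was -1.69 (SE 0.25, adjusted p 2.6e-09). STAT3, identifier ENSG00000168610.14, on the minus strand of chromosome 17 (42313324 to 42388540), stood at 13.4 and 18.3 TPM in JUNBi and at 3.07 and 2.75 TPM in STAT3i, again without overlap. The fold change was 2.64 (SE 0.24, adjusted p 7.8e-25), the largest rise of any called gene. In edgeR's quasi-likelihood test the adjusted p was 2.8e-04 for JUNB and 4.1e-05 for STAT3. JUNB fell short of the threshold of 0.01 without STAT3i replicate 2 (-1.57, DESeq2 adjusted p 0.0175). Since these levels compare the knockdowns with each other, they do not give the depth of either knockdown against untreated cells.

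**Figure D1:**
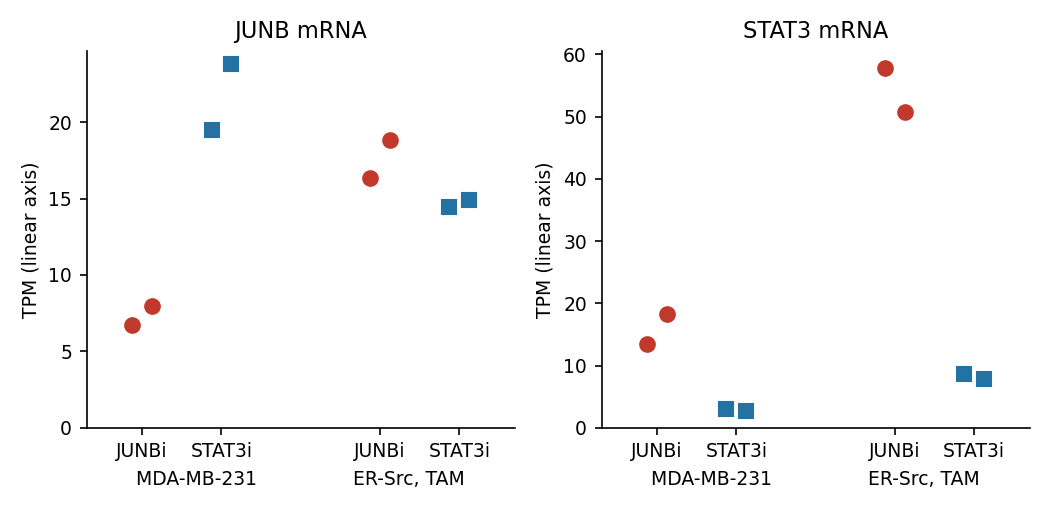
Levels of JUNB (left) and STAT3 (right) mRNA in TPM on linear axes from 0, 1 point per library, circles for JUNBi and squares for STAT3i. In MDA-MB-231 each gene is lowest in the libraries named for it, whereas in ER-Src cells with TAM the JUNBi libraries hold 16.4 and 18.9 TPM of JUNB against 14.4 and 14.9 in STAT3i.

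Beyond its targets, the pair of knockdowns differed at few genes, and more of these were lower than higher in JUNBi. DESeq2 gave an adjusted p to 7747 genes and called 115 of them (adjusted p under 0.01), or 1.48%. JUNBi was higher at 27 (0.349%) and lower at 88 (1.14%). The log2 fold change ran from 0.46 to 2.64 among the former (median 0.82) and from -3.21 to -0.46 among the latter (median -0.79). A difference of at least 2-fold was seen at 8 of the higher and 31 of the lower genes. In all 115 the 2 groups of libraries did not overlap. The share of all genes without overlap is not given here, so this adds no support to the calls. Among the called genes 111 were protein-coding. At an unadjusted DESeq2 p under 0.05 there were 1195 genes, of 24021 with a fold change. Only 13738 of the 24021 had a mean count of at least 10, and genes with few reads can seldom reach such a p. The share over all 24021 therefore cannot be set against 0.05, and this count cannot decide whether there was a wider response. The count depended on the test and on single libraries: edgeR called 56, of which 52 were among the 115, and DESeq2 called 68 without JUNBi replicate 1, 33 without JUNBi replicate 2, 30 without STAT3i replicate 1 and 32 without STAT3i replicate 2. The sign of all 115 differences was the same in every alternative.

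**Figure D2:**
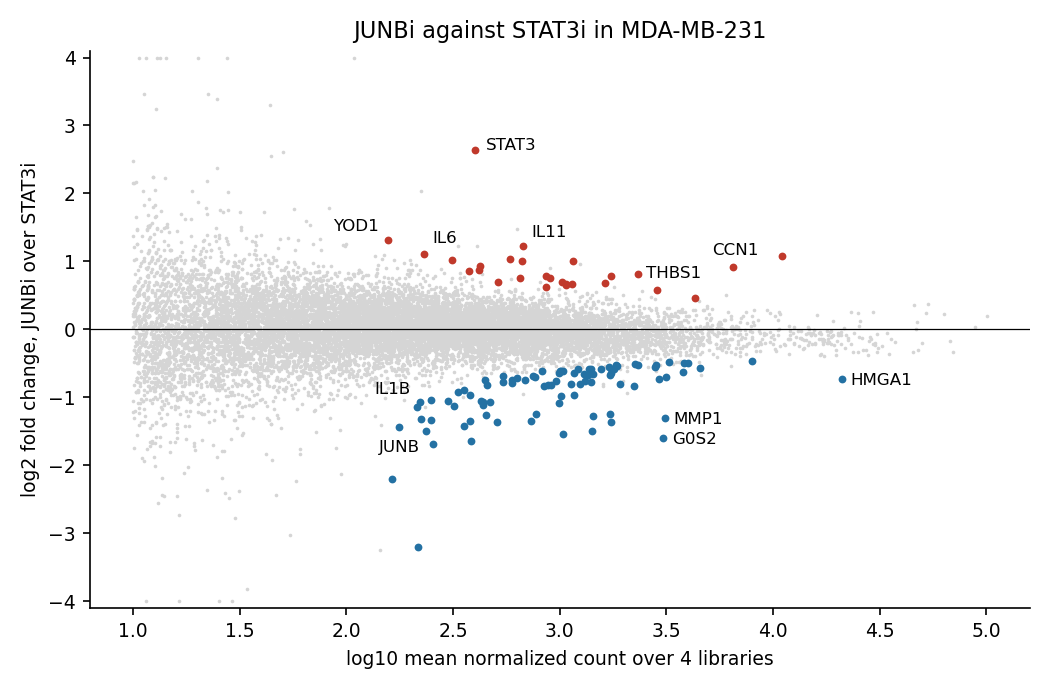
Log2 fold change (JUNBi over STAT3i) against log10 mean normalized count for 13738 genes with a mean of at least 10. Red points are the 27 called higher in JUNBi and blue points the 88 called lower, and 11 genes beyond 4 in size, none of them called, are drawn at the edge.

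Secreted cytokines were among the largest rises in JUNBi. IL11, a cytokine of the gp130 family, stood at 50.5 and 60.8 TPM in JUNBi and at 21.5 and 25.1 TPM in STAT3i. Its log2 fold change was 1.23 (SE 0.17, adjusted p 2.9e-10), and the lowest JUNBi library was above the highest STAT3i library. IL6, the best known ligand of that family, stood at 33.7 and 39.4 TPM in JUNBi against 15.0 and 15.1 TPM in STAT3i, a log2 fold change of 1.11 (SE 0.25, adjusted p 0.0013). The groups were well apart, but IL6 was not called without JUNBi replicate 2 (1.15, adjusted p 0.359), STAT3i replicate 1 (1.14, 0.346) or STAT3i replicate 2 (1.07, 0.275), and without JUNBi replicate 1 it had no adjusted p (1.06, unadjusted p 0.0102). IL11 remained called in the 3 of these fits that gave it an adjusted p, with 0.002 as the highest.

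Further cytokines were higher by smaller margins. CXCL1, a neutrophil-attracting chemokine, stood at 122 and 142 TPM in JUNBi and at 79.1 and 69.0 TPM in STAT3i (0.69, SE 0.16, adjusted p 0.00131). IL24, an interleukin-10 family cytokine, stood at 74.1 and 86.8 against 41.7 and 50.1 TPM (0.75, SE 0.17, adjusted p 0.00159). PTX3, a secreted pattern-recognition pentraxin, stood at 21.8 and 33.9 against 14.01 and 13.6 TPM (0.86, SE 0.22, adjusted p 0.00913). None of these overlapped between groups, but edgeR called none of the 3 and each lost its DESeq2 call without any of the libraries that left it an adjusted p. The opposite direction was taken by IL1B, the inflammasome-processed cytokine, at 8.12 and 11.6 TPM in JUNBi against 18.4 and 18.8 TPM in STAT3i (-1.07, SE 0.26, adjusted p 0.00305), a call that offsets from the deposited effective gene lengths and the removal of single libraries ended. Of the 28 cytokines and chemokines listed, 17 had a mean count of at least 10, of which 4 were called higher and 1 lower, and 11 of the 17 had a fold change above 0 (median 0.45). Over all 13738 genes at that level 50.8% were above 0 and the median was 0.01. CXCL8 (0.63, adjusted p 0.0916) and CSF2 (0.75, 0.0682) were among those that did not pass.

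A further set of the higher genes encodes mostly proteins of the cell surface and matrix. CCN1, a matricellular protein and a standard target of YAP and TAZ, stood at 376 and 431 TPM against 172 and 221 TPM (0.91, SE 0.13, adjusted p 7.2e-10). THBS1, the adhesive glycoprotein thrombospondin 1, stood at 38.3 and 55.5 TPM against 29.5 and 31.2 TPM (0.82, SE 0.13, adjusted p 1.1e-07). For each gene both JUNBi libraries lay above both STAT3i libraries. CCN1 remained called under all alternatives, including the removal of any library. F3, tissue factor, was called at 0.62 (SE 0.16, adjusted p 0.00639), from 50.4 and 62.1 TPM against 35.2 and 34.7 TPM. PLAU, the urokinase-type plasminogen activator, was called at 0.46 (SE 0.12, adjusted p 0.00676), from 208 and 264 TPM against 151 and 162 TPM. ADAM19, a membrane protease, and KRT80, an epithelial keratin, were higher by 1.02 and 1.00. With the effective length offsets THBS1, F3, PLAU and ADAM19 were not called, and edgeR did not call F3 or PLAU. F3, PLAU and ADAM19 were called in no fit that left out a library.

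Of the 22 YAP and TAZ target genes listed, CCN1 and F3 were called higher and none lower. Among the 22, 16 had a fold change above 0 and the median was 0.38, beside 0.01 for all genes. ANKRD1 (0.59, adjusted p 0.0262), AMOTL2 (0.58, 0.158) and CCN2 (-0.10, 0.9), equally standard targets, did not pass. The matrix protease list was divided by role. In the urokinase system 2 of 6 members with counts were called higher, PLAU among them, whereas none of the 7 metalloproteinases with counts had a fold change above 0 (median -0.53) and 1 was called lower.

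That metalloproteinase was MMP1, interstitial collagenase and a textbook AP-1 target, at 99.2 and 102 TPM in JUNBi against 228 and 226 TPM in STAT3i (-1.30, SE 0.13, adjusted p 5.4e-21). HMGA1, an AT-hook chromatin protein, was the most abundant called gene, at 941 and 975 TPM against 1457 and 1509 TPM (-0.73, SE 0.11, adjusted p 9.5e-09). Both JUNBi libraries lay below both STAT3i libraries for each. HMGA1 was not called by edgeR (adjusted p 0.0269) or by DESeq2 without STAT3i replicate 1 (0.0185) or 2 (0.0132). Of 30 AP-1 target genes listed, 25 had counts, and 2 were called higher (PLAU among them) and 3 lower (MMP1, HMGA1 and IL1B), with a median of 0.05. Of 30 STAT3 target genes, 24 had counts and the one call was JUNB itself, which that list also holds. SOCS3, the feedback inhibitor that STAT3 induces, stood at 6.31 and 9.62 TPM in JUNBi against 2.58 and 4.49 TPM in STAT3i, and did not pass (1.03, SE 0.34, adjusted p 0.0845).

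**Figure D3:**
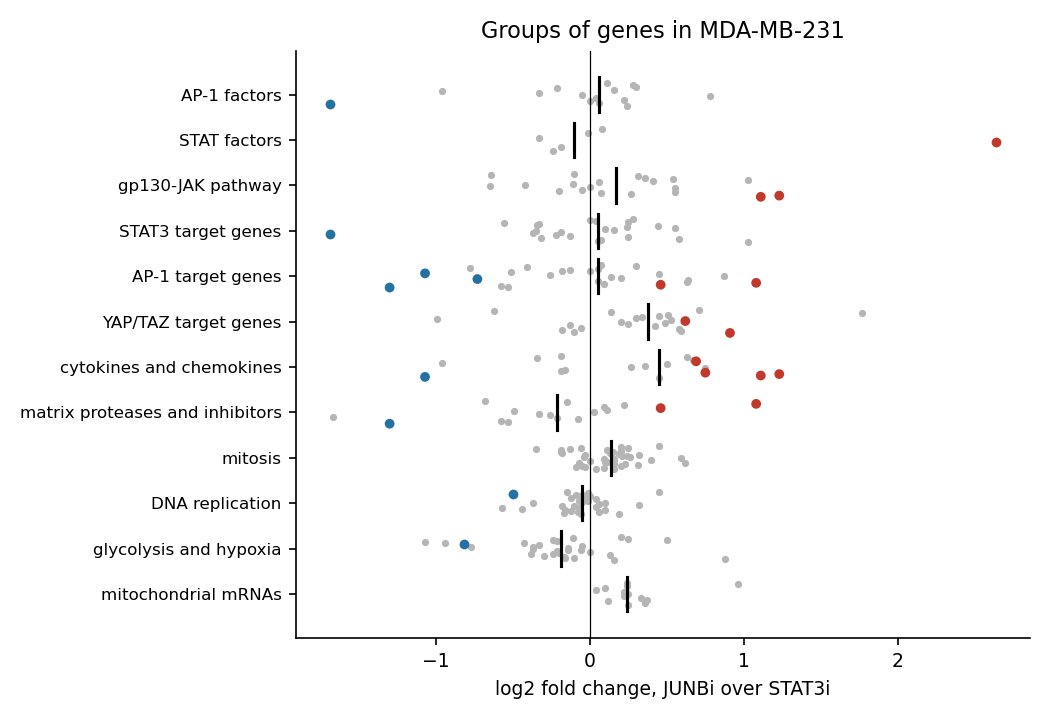
Log2 fold change (JUNBi over STAT3i) of each member with a mean count of at least 10 in 12 gene groups, grey where not called, red where called higher and blue where called lower, with a black bar at the group median. Calls are few in every group. The cytokine members spread to both sides of 0, whereas none of the metalloproteinases lies above it.

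The largest falls of all were in genes without a symbol, ENSG00000261147 (-3.21, SE 0.73, adjusted p 0.0013) and ENSG00000273590 (-2.21, SE 0.31, adjusted p 3.5e-10), of which GENCODE version 44 classes the first as protein-coding and the second as an artifact. They are named here for their size and not by the rule. Besides JUNB and MMP1, the large falls with a symbol were in genes of varied role. G0S2, an inhibitor of the lipase ATGL, stood at 204 and 201 TPM in JUNBi against 496 and 633 TPM in STAT3i (-1.60, SE 0.14, adjusted p 8.3e-25). SLC25A1, the mitochondrial citrate exporter that feeds lipid synthesis, stood at 37.1 and 37.1 TPM against 104 and 92.0 TPM (-1.54, SE 0.17, adjusted p 2.5e-16). GPX3, the secreted glutathione peroxidase, stood at 66.5 and 70.7 TPM against 168 and 170 TPM (-1.36, SE 0.13, adjusted p 9.9e-22). The TPM of the JUNBi libraries were close for each of them, and the groups did not overlap. Normalized counts in JUNBi were less close for G0S2 (1653 and 1388) and SLC25A1 (585 and 476). ECE1, which cleaves big endothelin, stood at 13.8 and 17.7 TPM against 40.8 and 39.2 TPM (-1.49, SE 0.14, adjusted p 4.1e-22). MYADM, a membrane protein marking myeloid differentiation (-1.35), and COMMD4, a COMM domain protein (-1.28), were lower with adjusted p of 4.1e-13 and 5.2e-15. These 6 genes and MMP1 were called in every alternative and without each library in turn, as were CCN1 and the lower genes ZDHHC16 (-1.25) and CDCA5 (-1.24), and 11 of the 115 were so in all. The last pair fell outside the rule for named genes and was picked for this count.

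Among the other large falls, those of CST1 and CST4 were uneven between the STAT3i libraries. CST1 and CST4, neighbouring secreted cystatins on chromosome 20, stood at 98.6 and 61.8 TPM in STAT3i replicate 1 but at 70.7 and 36.9 TPM in replicate 2, against 29.2 and 31.3 TPM (CST1) and 17.6 and 20.9 TPM (CST4) in JUNBi. Their log2 fold changes were -1.64 (adjusted p 2.2e-09) and -1.50 (adjusted p 7.3e-05), and without STAT3i replicate 1 the adjusted p rose to 0.0364 and to 1. The pair are paralogs of near sequence, so how RSEM split their reads is uncertain. SPDEF, an ETS factor of luminal epithelium, stood at 10.7 and 11.8 against 29.2 and 26.0 TPM (-1.43, adjusted p 1.2e-08). EXTL3, a heparan sulfate glycosyltransferase (-1.37), ATF5, a stress-response bZIP factor (-1.35), ST6GALNAC4, a sialyltransferase (-1.34), and MARCKSL1, an actin regulator (-1.32), completed the 15 largest falls with a gene symbol. Exons of ATF5 overlap NUP62 on the opposite strand and those of JUNB overlap HOOK2, and YOD1, HIF1AN, PTX3, IL24, PLAU and BNIP3L overlap opposite-strand genes too. Whether reads were counted by strand is not given in the sources used here, so reads of such partners may be mixed.

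**Figure D4:**
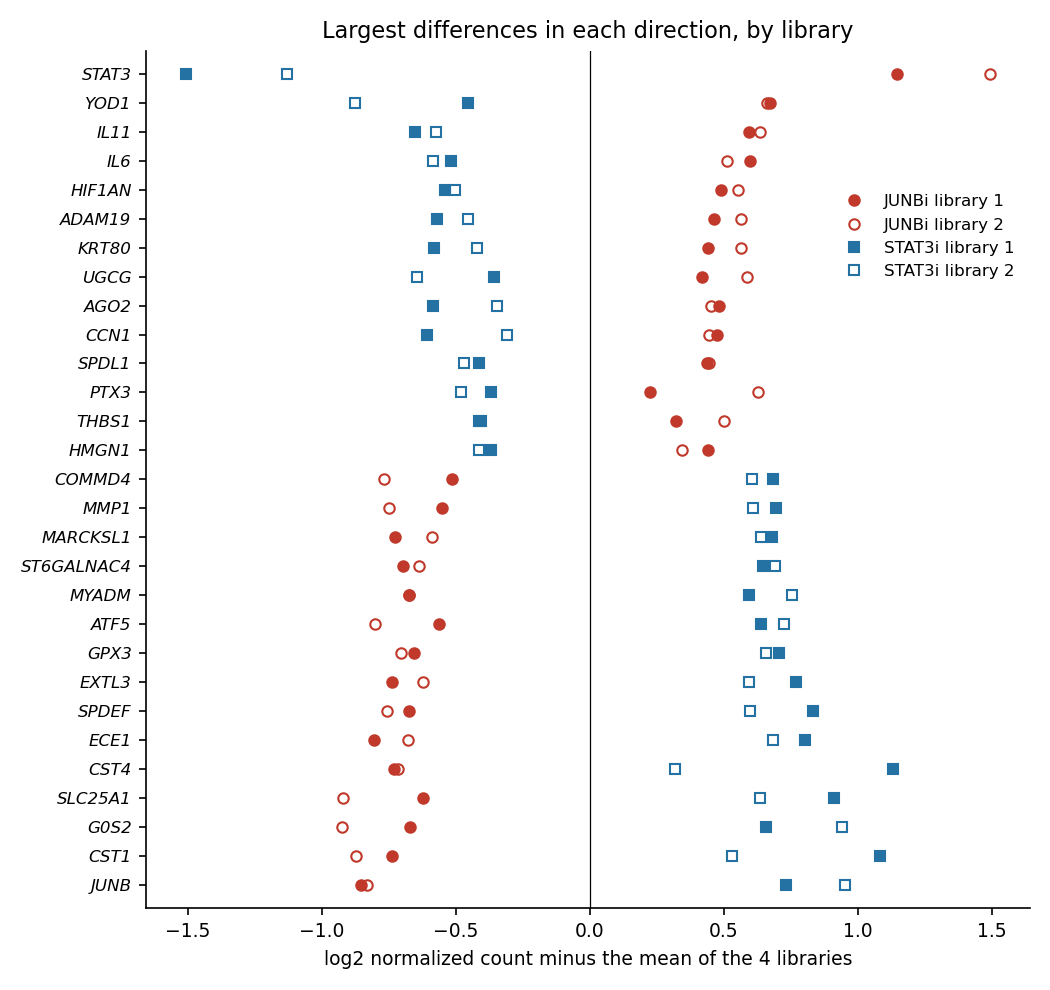
Genes from the 15 with the largest rise and the 15 with the largest fall, as log2 normalized count minus the mean of the 4 libraries, circles for JUNBi and squares for STAT3i, filled for replicate 1 and open for replicate 2. Circles and squares are apart in every line because the rule for these genes required it. The wide gap between the squares of CST1 and CST4 shows the spread within STAT3i.

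The remaining large rises were in genes of varied role. YOD1, a deubiquitinase, stood at 3.52 and 4.09 TPM in JUNBi against 1.56 and 1.22 TPM in STAT3i (1.32, SE 0.31, adjusted p 0.00212). HIF1AN, the asparagine hydroxylase that restrains HIF, was higher by 1.04 (SE 0.18, adjusted p 9.9e-07). UGCG, which makes glucosylceramide, was higher by 1.00 (adjusted p 8.5e-06), SPDL1, a kinetochore protein, by 0.88 (adjusted p 0.00099), and HMGN1, a nucleosome-binding protein, by 0.79 (adjusted p 9.2e-07). AGO2, the slicer of RNA interference, was called at 0.93 (adjusted p 0.00062) on counts. Its TPM, 6.10 and 6.74 in JUNBi against 5.96 and 4.71 in STAT3i, were much closer, and with effective length offsets it was not called. YOD1, HIF1AN, SPDL1 and AGO2 were called in no fit that left out a library, with adjusted p of 0.0176 to 0.657 where one was given. No other of the 10 genes listed for RNA interference and RNA sensing was called.

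The first 2 genes in each direction under the naming rule with an entry in RefSeq's promoters, apart from the targets, are shown as sequence because they carry the largest differences. Each line gives 250 bases before to 50 after the transcription start (GRCh38.p14, read in the direction of the gene), in lower case, with any TGANTCA (AP-1) or TTCNNNGAA (STAT) match in capitals. The promoter of YOD1 lies at chr1:207051159-207051458 on the minus strand, that of IL11 at chr19:55370414-55370713 on the minus strand, that of G0S2 at chr1:209675162-209675461 on the plus strand and that of SLC25A1 at chr22:19178687-19178986 on the minus strand.
YOD1: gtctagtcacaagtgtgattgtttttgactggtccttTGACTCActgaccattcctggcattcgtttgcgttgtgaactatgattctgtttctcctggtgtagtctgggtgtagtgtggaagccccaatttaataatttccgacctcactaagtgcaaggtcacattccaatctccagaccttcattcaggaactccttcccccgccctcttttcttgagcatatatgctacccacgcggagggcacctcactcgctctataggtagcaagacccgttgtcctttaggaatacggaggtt
IL11: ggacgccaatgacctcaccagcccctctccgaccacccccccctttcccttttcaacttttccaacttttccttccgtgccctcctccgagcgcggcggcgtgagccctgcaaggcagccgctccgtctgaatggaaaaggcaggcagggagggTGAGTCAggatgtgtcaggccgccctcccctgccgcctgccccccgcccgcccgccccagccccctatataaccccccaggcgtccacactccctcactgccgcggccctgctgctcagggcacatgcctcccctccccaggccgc
G0S2: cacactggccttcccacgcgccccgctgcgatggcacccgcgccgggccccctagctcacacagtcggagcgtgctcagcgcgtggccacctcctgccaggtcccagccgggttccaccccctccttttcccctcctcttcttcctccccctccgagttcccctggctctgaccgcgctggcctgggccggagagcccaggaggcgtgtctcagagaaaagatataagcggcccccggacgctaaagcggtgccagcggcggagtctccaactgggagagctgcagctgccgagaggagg
SLC25A1: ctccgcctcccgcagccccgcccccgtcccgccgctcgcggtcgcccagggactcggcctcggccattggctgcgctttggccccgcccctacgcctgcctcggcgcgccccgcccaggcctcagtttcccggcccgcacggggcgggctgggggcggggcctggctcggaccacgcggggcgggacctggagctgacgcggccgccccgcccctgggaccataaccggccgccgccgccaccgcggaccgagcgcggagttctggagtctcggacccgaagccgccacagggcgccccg
YOD1 and IL11, both higher in JUNBi, each held an AP-1 match, starting 213 and 96 bases before the start, and the G0S2 and SLC25A1 windows, from genes lower in JUNBi, held neither motif.

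Among all called genes, RefSeq gave a promoter for 21 of the 27 higher and 66 of the 88 lower. The AP-1 pattern, searched on both strands, on which it reads the same, was found in 3 higher genes (14.3%) and 5 lower genes (7.58%). It was found in 4.41% of the 6308 promoters of tested genes and in 7.76% of all 27305 RefSeq promoters. The STAT pattern was found in 1 higher gene (4.76%) and 2 lower genes (3.03%), beside 6.06% of tested and 7.88% of all promoters. The matches outside those above are printed with 9 bases on each side to show that the AP-1 letters occur on both sides of the comparison, and no AP-1 match overlaps a STAT match.
F3, 223 bases before the start: tggcgcggtTGAATCActggggtga
F3, 210 bases before the start: tcactggggTGAGTCAtcccttgca
THBS1: caccgacttTTCTGAGAAgttctagtg
ATF5: agagtgctgTGACTCAtgctggact
CD68: tgaggccccTGAGTCAggctgtggg
SAP30BP: tcggcgtctTGAGTCAtaggagtga
SFN: ctgttctgaTGATTCAcccccacat
SHISA5: aaggaagaaTGACTCAacatccctg
IL1B: tccttgcccTTCCATGAAccagagaat
NABP2: gggggaaacTTCCGGGAAtgtccgcac
F3 and THBS1 were higher in JUNBi and the other 7 genes lower, among them CD68, a lysosomal glycoprotein (-0.96), and NABP2, a single-stranded DNA-binding protein (-1.26). The AP-1 shares rest on 3 and 5 genes and are a description only. A match is not evidence that a factor binds there.

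None of the AP-1 partners of JUNB passed the test. Of 19 AP-1 family genes, 15 had counts, and JUNB alone was called. FOSL1, the most abundant member, stood at 470 and 441 TPM in JUNBi and at 424 and 420 TPM in STAT3i (0.00, SE 0.13, adjusted p 0.996). JUND stood at 86.5 and 101 TPM against 71.5 and 80.2 TPM (0.06, SE 0.14, adjusted p 0.934). JUN (0.24, SE 0.19, adjusted p 0.678) and FOSL2 (0.22, SE 0.15, adjusted p 0.604) overlapped or nearly met between groups. ATF3, a stress-induced member, had the largest rise of the family at 0.78 (SE 0.53, unadjusted p 0.142, no adjusted p), from 3.01 and 3.36 TPM against 1.77 and 1.65 TPM. ATF2, ATF7, BATF, BATF2 and JDP2 also had no adjusted p, and their values ran from -0.96 (BATF2) to 0.04 (ATF2). BATF3 stood at 0.16 and the small MAF factors, MAFF, MAFG and MAFK, at 0.30, 0.28 and 0.11, with adjusted p of 0.591 to 0.912 among these 4. A p above the threshold does not show that levels were equal.

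Among the STAT factors, STAT3 alone was called of the 6 with counts. STAT5A, the neighbour of STAT3 on chromosome 17, was at -0.33 (adjusted p 0.625), STAT2 at -0.19 (0.798), STAT5B at -0.01 (0.996) and STAT6 at 0.08 (0.904). In the gp130 and JAK pathway, the 5 ligands with counts all had fold changes above 0 (median 0.55). Besides IL6 and IL11 these were CTF1 at 0.55 (unadjusted p 0.162), LIF at 0.27 (adjusted p 0.532) and CLCF1 at 0.07 (adjusted p 0.954). The receptors had a median of -0.02, the shared receptor subunit gp130 (IL6ST) at -0.20 (adjusted p 0.768), OSMR at 0.00 (0.999), IL11RA at -0.05 and LIFR at 0.55 without an adjusted p. The kinases did not pass: JAK1 stood at 6.79 and 8.27 TPM in JUNBi against 9.34 and 12.2 TPM in STAT3i (-0.65, SE 0.20, adjusted p 0.0529), TYK2 at -0.11 (0.88) and JAK3 at -0.42 (unadjusted p 0.49). Among 8 inhibitors and phosphatases with counts, SOCS3 was followed by PIAS3 (0.54), SOCS2 (0.41), PTPN1 (0.36), PTPN2 (0.31), SOCS1 (0.06), PTPN11 (-0.10) and PTPN6 (-0.64), none of them called.

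Few calls fell in the other groups. PMEPA1, a TGF-beta feedback gene, was lower (-0.76, adjusted p 1e-05). TK1, thymidine kinase, was the 1 call among 34 DNA replication genes (-0.50, adjusted p 0.00695), and E2F1, the factor that drives such genes, the 1 call among G1 regulators (-0.59, adjusted p 0.00235). None of 40 mitosis genes was called, with 28 above 0 and a median of 0.14. BNIP3L, a mitophagy receptor, was the 1 call of 30 glycolysis and hypoxia genes with counts (-0.82, adjusted p 0.00393), in a group with 7 members above 0 and a median of -0.19. MT1X, a metallothionein, was lower (-0.54, adjusted p 0.00387), as was SFN, an epithelial 14-3-3 protein (-0.80, adjusted p 6e-06). The lists for NF-kB, EMT, integrins and collagens, EGF and MAPK feedback, apoptosis, p53, interferon, antigen presentation, fatty acid synthesis, ATF4 and unfolded proteins, and NRF2 held no call. Not every member could be called. An adjusted p was given to 30 DNA replication, 36 mitosis, 27 glycolysis and hypoxia, 14 interferon, 9 NF-kB, 8 p53 and 6 EMT genes. Over all tested genes 1.48% were called, so 1 call or none in lists of this size says little about them.

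Base composition and mitochondrial RNA differed between the groups, with spread between replicates too. Median GC content of the transcripts was 57.3% for genes called lower, 46.8% for genes called higher and 48.4% for all genes with counts. Across 5 bins of rising GC, equal in gene number, the median log2 fold change went from 0.07 to -0.11, while between the replicates of JUNBi it stayed between 0.00 and 0.03 and between those of STAT3i between -0.07 and 0.07. With offsets that remove that trend, an alternative added after seeing the data, 101 genes were called, 31 higher and 70 lower, and 89 of them were among the 115. PTX3, F3, TK1, E2F1 and MT1X were then not called. All 13 mitochondrial mRNAs had fold changes above 0 (median 0.24, none called), and they took 4.64% and 5.18% of counts in JUNBi against 3.65% and 4.50% in STAT3i. The part of mitochondrial RNA in the other differences was not tested.

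The same siRNA targets were also compared in ER-Src cells, MCF-10A mammary cells that carry a v-Src fused to the estrogen receptor and were treated with tamoxifen (TAM) to switch it on, in the 4 libraries named JUNBi and STAT3i under TAM. There DESeq2 called 928 of 15506 genes (5.98%), 455 higher (2.93%) and 473 lower (3.05%). Of the 115 genes called in MDA-MB-231, 107 were tested in ER-Src and 36 were called in both, which is 31.3% of the MDA-MB-231 calls and 3.88% of the ER-Src calls. Among the 36, 29 had the same direction and 7 the opposite. In ER-Src treated with ethanol, where v-Src is not switched on, 259 of 15260 genes were called (1.7%), 8 of the 115 were called in both, and all 8 had the same direction. The lines also differ in library make-up, since RNAs without a poly(A) tail took at most 0.0112% of counts in MDA-MB-231 and 9.9% to 11.7% in these ER-Src libraries, so only differences within a line were compared. An interaction term over the 8 libraries was called at 285 of 15158 genes (1.88%), positive at 113 (0.745%) and negative at 172 (1.13%), positive meaning a difference further toward JUNBi in MDA-MB-231. Of the 115 genes 26 had a called interaction, 8 positive and 18 negative. The 115 were called on the same MDA-MB-231 libraries that enter the interaction, so part of this share and of its signs is built in.

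**Figure D5:**
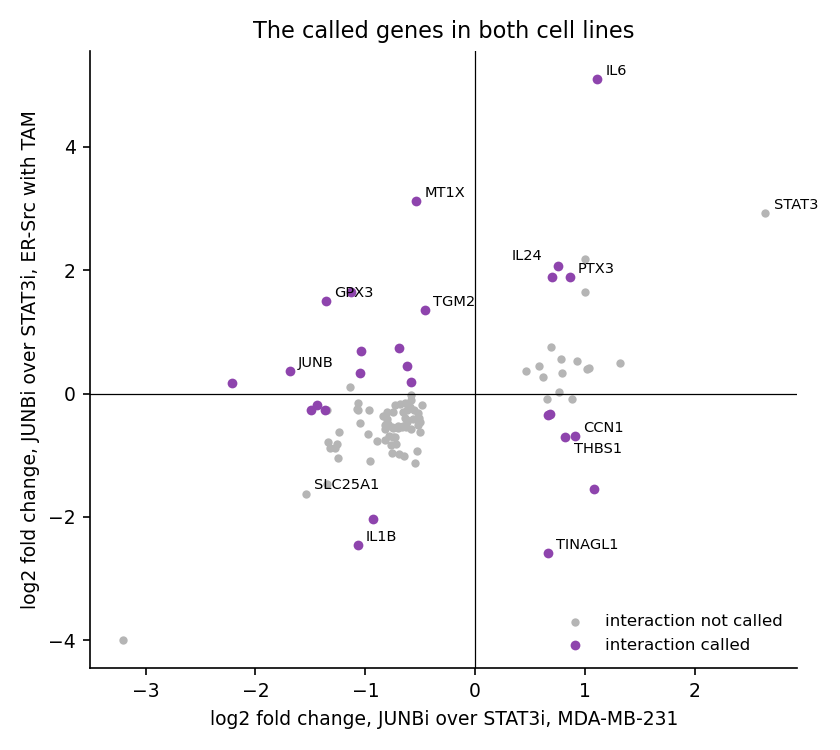
Log2 fold change (JUNBi over STAT3i) in MDA-MB-231 on the horizontal axis and in TAM-treated ER-Src on the vertical axis for the 107 genes called in MDA-MB-231 and tested in both, purple where the interaction was called (26 genes). CCN1, THBS1 and TINAGL1 lie at the lower right and MT1X, GPX3 and TGM2 at the upper left, where the fold changes have opposite signs.

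Some genes, several of them of the cell surface and matrix, took opposite directions in MDA-MB-231 and in ER-Src under TAM. CCN1 and THBS1 had -0.69 and -0.70 under TAM, with interactions of 1.59 (adjusted p 4.5e-15) and 1.5 (5.8e-13), and the groups were apart in opposite order. Under ethanol the order was not reversed: THBS1 stood at 0.88 (adjusted p 0.0435, interaction -0.10, adjusted p 0.982) and CCN1 at 0.20 (0.935, interaction 0.68, adjusted p 0.227). PLAU, F3 and ADAM19 had no called interaction with TAM-treated ER-Src either, at 0.08, 0.34 and 0.60 (adjusted p 0.994, 0.614 and 0.733). TINAGL1, a basement membrane protein, stood at 68.2 and 85.3 against 39.8 and 52.2 TPM in MDA-MB-231 but at 1.60 and 1.60 against 8.65 and 10.2 TPM in ER-Src under TAM, with an interaction of 3.22 (SE 0.28, adjusted p 8.2e-27). With ethanol the interaction was 1.35 (adjusted p 0.038). The reverse held under TAM for TGM2, a crosslinking transglutaminase, and SLCO4A1, an organic anion transporter, with interactions of -1.83 (adjusted p 2.1e-15) and -2.78 (3.2e-13), against -0.40 (0.757) and -0.87 (0.508) with ethanol. MT1X stood at 404 and 442 against 572 and 551 TPM in MDA-MB-231 and at 969 and 929 against 122 and 112 TPM in ER-Src under TAM, an interaction of -3.68 (SE 0.19, adjusted p 6.7e-76), while under ethanol it stood at 44.8 and 41.9 against 41.4 and 42.8 TPM. TINAGL1, TGM2 and SLCO4A1 were picked after their values were seen, since they belong to the 7 genes of opposite direction.

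Some secreted factors shared a direction with ER-Src under TAM but not a size. IL6 stood at 3.69 and 2.86 TPM in JUNBi and at 0.17 and 0.05 TPM in STAT3i in ER-Src under TAM (5.10, adjusted p 7.5e-08), and the interaction was -4.0 (SE 0.77, adjusted p 2.5e-05). IL24 and PTX3 were also higher by more under TAM, by 2.07 and 1.89, with interactions of -1.34 (adjusted p 1.8e-05) and -1.05 (0.00264). Under ethanol PTX3 stood at 1.23 (adjusted p 0.00947), whereas IL24, at 0.16 to 1.02 TPM in those libraries, stood at -2.16 (0.468) and its interaction turned to 2.86 (0.00194). IL1B was lower in both, at -2.45 under TAM, with an interaction of 1.36 (adjusted p 0.00025). For CXCL1 (0.76 under TAM, interaction -0.08, SE 0.22, adjusted p 0.994), SLC25A1 (-1.62, interaction 0.07, SE 0.28, adjusted p 0.996) and HMGA1 (-0.71, interaction -0.04, SE 0.21, adjusted p 0.996) no difference from TAM-treated ER-Src was detected. GPX3 was called lower in MDA-MB-231 and stood at 1.5 in ER-Src under TAM (adjusted p 0.0305), with an interaction of -2.90 (SE 0.31, adjusted p 2.6e-18), which was -2.72 (adjusted p 1.9e-09) with ethanol. IL11 stood at 0.03 to 0.07 TPM, and G0S2, CST1 and CST4 were listed at 0, in all 4 ER-Src libraries under TAM.

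The targets themselves differed in this respect. STAT3 was lower in STAT3i in each line, with fold changes of 2.64 in MDA-MB-231, 2.92 in ER-Src under TAM and 2.11 under ethanol, and no difference between the first pair was detected, the interaction being -0.31 (SE 0.25, adjusted p 0.834). JUNB, in contrast, stood at 16.4 and 18.9 TPM in JUNBi and 14.4 and 14.9 TPM in STAT3i in ER-Src under TAM (0.37, adjusted p 0.333), and its interaction was -2.07 (SE 0.31, adjusted p 3.8e-09). In ER-Src under TAM the libraries named JUNBi thus did not hold less JUNB mRNA than those named STAT3i. Under ethanol JUNB stood at 3.90 and 8.55 TPM in JUNBi against 7.97 and 16.5 TPM in STAT3i (-0.93, adjusted p 0.399), with overlap, and the interaction was -0.79 (SE 0.59, adjusted p 0.746). The control libraries were not used for either line here. SOCS3 and FOSL2 also differed between MDA-MB-231 and ER-Src under TAM, with 3.37 and 1.22 in the latter and interactions of -2.36 (adjusted p 7.5e-11) and -1.01 (0.00036). With ethanol their interactions were -0.49 (0.907) and -1.47 (0.00194). OSMR, IL6ST and LIF, which were not called in MDA-MB-231, stood at 1.22, 0.76 and 1.48 in ER-Src under TAM with interactions of -1.24 (adjusted p 1.2e-05), -0.98 (0.00091) and -1.22 (0.00076). With ethanol these were -0.36 (0.824), -0.88 (0.195) and 0.52 (0.796).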

How the data were processed

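Messenger RNA was measured by sequencing. The labels give total RNA and a TruSeq Ribo Profile kit for every library used, although RNAs without a poly(A) tail were far scarcer in MDA-MB-231 than in ER-Src libraries. The authors trimmed reads, aligned them with STAR to the GENCODE version 30 transcriptome (hg38) and quantified genes with RSEM, whose versions are not given in the sources used here. The deposited expected counts are estimated, unnormalized read numbers per gene. The deposited TPM divide them by effective length and scale each library to the same sum. The authors also deposited gene lengths and effective lengths in bases.

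Only Ensembl genes were used (60725 identifiers), of which 93.1% matched GENCODE version 44 for symbols and coordinates. Expected counts were rounded and compared with DESeq2 (1.42.0, under R 4.3.3) by its Wald test at a Benjamini-Hochberg adjusted p of 0.01, keeping the default size factors and filtering of low counts, after the methods of the study. Any adjusted p comes from DESeq2 where edgeR (4.0.16) is not named. Filtering left some genes without an adjusted p. Log2 fold changes are unshrunken, and changes were tested across all genes, also for the cell line by knockdown interaction over 8 libraries. The depth of 8127286 to 18076140 reads and 2 libraries per group limit what can be detected. The pipeline was tested on simulated data.

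Named genes were JUNB, STAT3, the 15 genes with the largest rise and the 15 with the largest fall (with a symbol, called, mean normalized count of at least 100, groups not overlapping), AP-1, STAT and gp130-JAK members with a mean of at least 10, up to 6 called members of other lists, and 5 genes per sign of the interaction. Members, lists and tests were chosen with earlier results of these data known. Alternatives were edgeR, TMM size factors, a mean count filter of 10, effective length offsets, a replicate block, a threshold of 0.05, ethanol-treated ER-Src and leaving out each library. GC offsets, alone and with the block, were added after the data were seen. A few named genes are not reported here, in text or plots. Gene lists and promoter motifs are described by counts without a test.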

Additional observations from a re-analysis of the deposited data

Results flagged for a closer look

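The JUNBi against STAT3i difference was unlike between MDA-MB-231 and TAM-treated ER-Src cells at 285 genes by the interaction term of DESeq2, and JUNB itself was among them at -2.07 on the log2 scale. The largest interactions were found mostly at genes that 1 line hardly expressed. MHC class II genes had strongly negative values: CD74, the invariant chain, at -6.07, HLA-DRB1 at -5.98 and HLA-DRA at -5.37. In MDA-MB-231 CD74 stood at 461 and 542 TPM in JUNBi and 495 and 560 TPM in STAT3i, and in ER-Src at 1.59 and 1.78 against 0.03 and 0.07 TPM. HLA-DRB1 shares sequence with other class II genes, so its reads could be split. TNFRSF1B, the second TNF receptor, at -5.58 and LRG1, a secreted leucine-rich glycoprotein, at -4.96 followed. LRG1 stood at 7.66 and 6.32 TPM against 0.18 and 0.25 TPM in ER-Src, and at 0.27 to 0.43 TPM in the MDA-MB-231 libraries.

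On the positive side CLDN4, a tight junction claudin, had 4.29, from 56.7 and 65.0 against 36.5 and 45.2 TPM in MDA-MB-231 and 0.04 and 0.03 against 0.60 and 0.37 TPM in ER-Src. EIF4EP2, a pseudogene of EIF4E, had 6.45, with 4.40 and 2.36 TPM in JUNBi and 0 in both STAT3i libraries of MDA-MB-231, and its reads could belong to the parent gene. Identical values in every library were given to ENSG00000280614, ENSG00000281181 and ENSG00000280800, each 3.97, which lie on chromosome 21 and share their reads, so they count as 1 measurement of uncertain origin. No explanation of these differences was tested.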

How the results depend on the processing

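For the 115 genes called in MDA-MB-231, edgeR gave 56 and a threshold of 0.05 gave 194, while leaving out 1 library gave 30 to 68. TMM size factors (112), a count filter (119), effective length offsets (80), the replicate block (132), GC offsets (101) and GC offsets with the replicate block (111) stayed within 1.5 times. For the 285 interactions, edgeR gave 178, GC offsets 430, ethanol-treated ER-Src cells 85 and leaving out 1 library 179 to 233, and the replicate block gave 265. With ethanol-treated ER-Src the interaction changed sign for 4 named genes where it was called under TAM: CD74 (1.16, DESeq2 adjusted p 0.868), IL24 (2.86, 0.00194), LIF (0.52, 0.796) and THBS1 (-0.10, 0.982). Of the 26 genes called both in MDA-MB-231 and by the interaction, 23 kept the sign with ethanol, but only 4 were also called there. Both interactions use the same MDA-MB-231 libraries, so part of the shared sign is built in. Fold changes of genes that were not called could also turn. JUNB ran from -1.80 to -1.57 without single libraries and was not called without STAT3i replicate 2. The causes were not tested. Of 41 named genes called, edgeR called 30, effective length offsets 29, the replicate block 32 (6 others had no adjusted p) and GC offsets 36. In all, 37 of the 115 were called in all 7 alternatives that kept every library.

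Replicates share only a number here. Deviations of same-numbered libraries correlated at r = 0.24 across 8642 genes in MDA-MB-231, a hint from the data and not from the design. With 2 libraries per group a missing call does not show equal levels, and genes with few reads had no adjusted p at all.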
